A study of Mus musculus with 8 samples.

Results

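Mouse embryonic stem cells (ESCs) grown without the MEK inhibitor PD, in CH+LIF, were compared with cells of the same line grown with it, in 2i+LIF. The comparison uses the 4 cultures that carry these labels, 2 in each condition, of the 8 cultures sequenced. All 8 were cultures of 1 line, Rex1GFPd2 (strain 129), in which a short-lived GFP is expressed from the locus of Rex1, also called Zfp42. The line had been kept in 2i, meaning CH and PD together, for 6 passages, and was then passaged 5 more times in its test medium, to passage 11. Plates were coated with gelatin and the medium was serum-free N2B27, and cells were replated at 15000 cells per square centimetre every 3 days.

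The 2i+LIF cultures received LIF, the GSK3 inhibitor CH (CHIR99021, 3 µM) and the MEK inhibitor PD (PD0325901, 1 µM). The CH+LIF cultures received LIF and CH at 3 µM and no PD. The other 4 cultures, 2 in 2i (CH and PD, no LIF) and 2 in LIF+PD (no CH), all received PD at 1 µM and enter as further cultures with PD. Nothing in the labels says whether replicates 1 and 2 were kept apart from an earlier passage, so the p-values measure the spread between these cultures and may hold technical spread alone.

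PD blocks MEK, the kinase that phosphorylates and activates ERK downstream of FGF receptors and Ras. Mouse ESCs secrete FGF4, and the ERK activity it elicits primes them to leave the naive state, which is why a MEK inhibitor is part of the medium that holds them there. Active ERK switches on genes of its own inhibitors, among them the Sprouty and Spred proteins and the dual-specificity phosphatases, and their transcripts are used as a readout of the pathway.

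Transcript levels are FPKM as deposited by the authors, that is, fragment counts divided by transcript length and library size. Of 38991 genes, 12777 were tested, those at least 300 bases long that reached 1 FPKM in 2 or more of the 8 cultures. Differences are given as log2(FPKM + 1) in CH+LIF minus that in 2i+LIF, with ± the standard error (SE) from a limma fit of the 8 cultures. On this scale the change of a gene at about 1 FPKM or less is understated. A gene was called when its Benjamini-Hochberg adjusted p, over all genes tested, was below 0.05. FPKM sums were 829098 and 875458 in 2i+LIF against 715575 and 764466 in CH+LIF. Genes that are neither short, mitochondrial nor ribosomal summed to 517870 to 544640 in these 4 cultures. The number of reads is not part of FPKM values. The estimated depth of the CH+LIF cultures was 1.17 and 1.18 times that of 2i+LIF replicate 1, and 2i+LIF replicate 2 stood at 1.10 times. Cultures of the same condition had r = 0.99 across genes on the log2 scale in both conditions, and the 4 pairs of a CH+LIF with a 2i+LIF culture had r of 0.961 to 0.963.

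For 241 of the genes called higher and 257 of those called lower, at least 1 of the 4 FPKM values lay above the upper bound deposited beside it, and the level of such genes is uncertain, as is that of genes whose reads could be shared with near-identical copies. Among the genes named below these are Atf4, B2m, Bst2, Dppa5a, Drosha, Eif4g2, Elf3, Etv4, Etv5, Ezh2, Fgf4, Fgfbp1, Gadd45b, Hmgb1, Hsp90ab1, Hspa8, Hspd1, Ier2, Ifitm2, Ifitm3, Katna1, Klf2, Klf5, Lamc1, Lss, Ly6a, Map2k2, Mest, Notum, Pim3, Psat1, Rasa1, Rbbp7, Rpl10l, Sall4, Sox2, Sp5, Sparc, Spry2, Stat3, Tcf7l1, Tdgf1, Tead2, Ttll3, Tuba3a, Upp1, Utf1 and Zfp42 and the named ribosomal protein genes.

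Without PD, 3411 of the 12777 genes changed, which is 26.7% of those tested. Of these, 1638 were higher in CH+LIF (12.8%) and 1773 were lower (13.9%). The median size of the called changes was 0.61 for genes that rose and 0.73 for genes that fell, and 348 and 499 of them differed by at least 1 on the log2 scale. Leaving out 1 of the 4 compared cultures left between 1654 calls (without CH+LIF replicate 1) and 2195 calls (without CH+LIF replicate 2), with 1814 and 1836 calls without 2i+LIF replicate 1 and 2. When all cultures were rescaled to the same FPKM sum, the median of all genes moved from 0.01 to 0.18, and the split of calls moved from 48% to 74.1% higher in CH+LIF. A rescaling chosen after the data were seen, to the same sum without short, mitochondrial and ribosomal protein genes, gave 46% higher. A call that ended under the first rescaling is named beside its gene. The same rescaling turned the median difference from negative to positive for the lists of network components, immediate-early, G1, MYC, Nodal and BMP, p53, interferon and oxidative phosphorylation genes, so no direction is given for these lists as a whole.

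**Figure D1:**
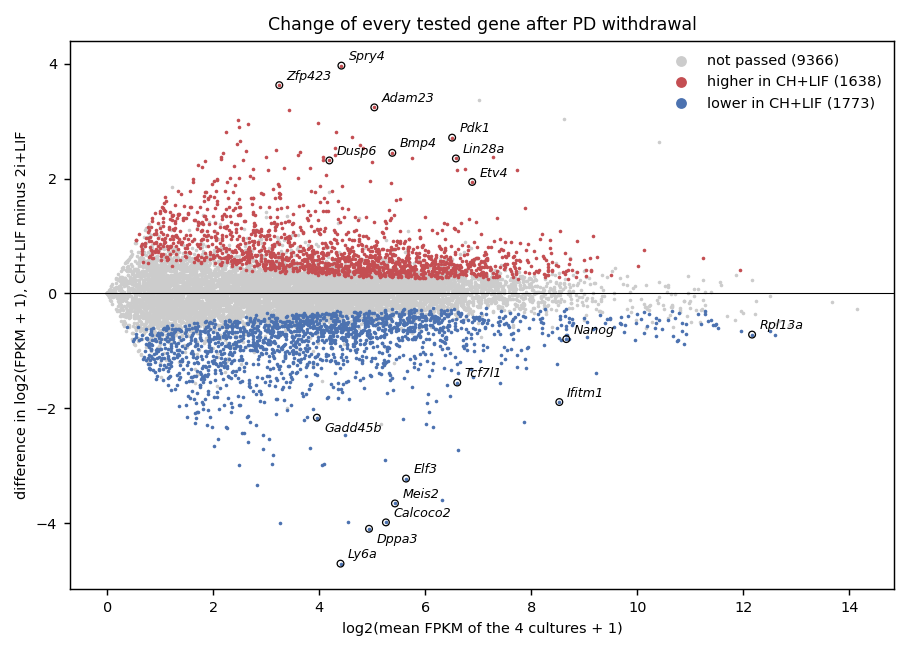
Each point is 1 of the 12777 tested genes, with log2 of its mean FPKM over the 4 cultures plus 1 on the x axis and its difference in log2(FPKM + 1), CH+LIF minus 2i+LIF, on the y axis. Red points (1638) were called higher and blue points (1773) lower in CH+LIF; Spry4 at 3.97 and Ly6a at -4.71 mark the extremes among the named genes.

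Of 16 genes for ERK feedback inhibitors and ETV factors, whose transcripts serve as readouts of ERK activity, 9 rose without PD, 6 did not pass and Dusp1 fell. Spry4, which encodes an inhibitor of Ras-ERK signalling, headed the 12 largest increases listed further on. Its level was 2.17 and 1.07 FPKM in 2i+LIF, 0.61 and 0.293 in 2i, 0.547 and 0.674 in LIF+PD and 37.5 and 40.7 in CH+LIF. The CH+LIF cultures lay above all 6 cultures with PD, whose highest value was that of 2i+LIF replicate 1. The difference from 2i+LIF was 3.97 ± 0.22 (adjusted p = 0.000112, limma), and that from the mean of the 3 conditions with PD was 4.47 ± 0.18 (adjusted p = 2.42e-05). Dusp6, the phosphatase that removes phosphate from ERK itself, was at 5.64 and 4.58 FPKM in 2i+LIF, 5.99 and 3.55 in 2i, 6.86 and 4.11 in LIF+PD and 26.5 and 32.3 in CH+LIF. Again both CH+LIF cultures exceeded every culture with PD, and the difference from 2i+LIF was 2.31 ± 0.26 (adjusted p = 0.00108, limma). The gene lies in mm10 at chr10:99263231-99267488 on the plus strand. Spry4 and Dusp6 serve here as readouts of ERK activity. Tcf7l1, a repressor of Wnt target genes, was named with them as a check gene for this comparison. It fell and is described with the network components.

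All 16 listed genes were tested, and 62.5% were called, beside the 26.7% of all genes. Their median difference was 0.59, beside 0.01 for all tested genes. Etv4, an ETS-family transcription factor of the FGF response, went from 53 and 43 FPKM in 2i+LIF to 184 and 188 in CH+LIF, and the other 4 cultures with PD held 2.06 to 12.1. Its difference was 1.94 ± 0.45 (adjusted p = 0.0169, limma), but the call did not survive the loss of any 1 culture. The negative regulator Spry1 was at 1.71 and 2.1 FPKM in 2i+LIF and 6.52 and 7.95 in CH+LIF, a difference of 1.5 ± 0.18 (adjusted p = 0.00123). Spred1, which holds neurofibromin at the membrane to turn Ras off, was at 9.25 and 7.92 against 20.1 and 18.6, a difference of 1.09 ± 0.12 (adjusted p = 0.00104). Spred2, Il17rd (the FGF antagonist Sef), Spry2 and Dusp4, a nuclear phosphatase, rose by less, with differences of 0.61, 0.62, 0.50 and 0.98. With 1 culture left out, the adjusted p passed 0.05 for Etv4 (0.0581 to 0.0863 without any 1 of the 4), Il17rd (0.051 to 0.078 without any 1 of the 4), Spry2 (0.0602 without 2i+LIF replicate 2 and 0.0654 without CH+LIF replicate 1) and Dusp4 (0.0653 without 2i+LIF replicate 1, 0.0568 without CH+LIF replicate 1 and 0.0522 without CH+LIF replicate 2).

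Members of the same families moved differently. Dusp1, a phosphatase that acts more on p38 and JNK than on ERK, fell from 34.9 and 32.3 FPKM in 2i+LIF to 17.3 and 15.9 in CH+LIF, a difference of -0.97 ± 0.15 (adjusted p = 0.0035, limma). Etv5, a close relative of Etv4, was already abundant with PD, at 199 and 183 FPKM in 2i+LIF and 222 and 208 in CH+LIF, and its difference of 0.17 had a 95% interval of -0.13 to 0.47. Etv1, Dusp5, Spred3, Phlda1 and Errfi1 did not pass, with differences between -0.26 and 0.57. Set against the mean of the 3 conditions with PD, 10 of the 16 genes were higher in CH+LIF and 0 were lower, where 13.2% of all tested genes were called higher and 16.9% lower. In that contrast Etv4 differed by 3.66 (adjusted p = 0.000486), Spry2 by 1.29 and Spred1 by 1.60, and Dusp4 did not pass, with 3.66 and 2.25 FPKM in 2i. Both CH+LIF cultures lay above all 6 cultures with PD for 13% of the tested genes and below them for 14%. Spry4, Dusp6, Spry1, Spry2, Spred1, Spred2, Spred3, Etv4 and Il17rd were among the former.

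**Figure D2:**
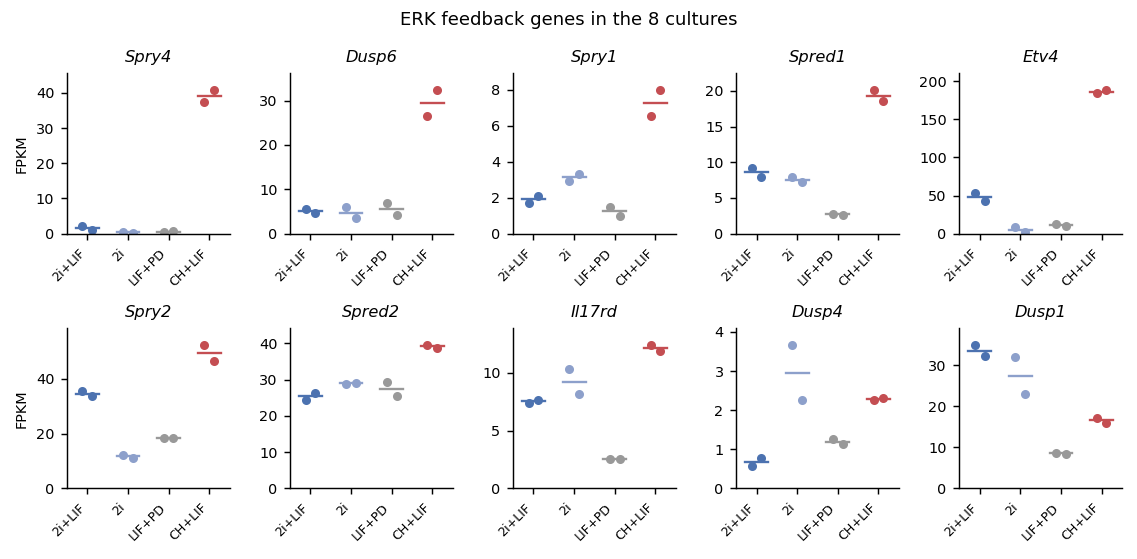
FPKM of 10 ERK feedback genes, the 9 that rose and Dusp1, in each of the 8 cultures (points) with the mean of each condition (line); each y axis starts at 0. CH+LIF points are red, and for Spry4 they lie at 37.5 and 40.7 FPKM where the 6 cultures with PD stay at or below 2.17.

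The promoter sequences below, from RefSeq (GRCm38.p6), are the 250 bases before an annotated start of 5 genes that this comparison turns on, each 5′ to 3′ on the gene's strand. Where several starts are annotated, the first listed was taken. They are Dusp6, Bmp4 and Lin28a, which rose, and Tcf7l1 and Meis2, which fell. The Meis2 window lies inside the span deposited for the gene, chr2:115863064-116065839, so its start is an internal one. Capitals mark matches, on either strand, to the letters searched, which were TGACTCA (AP-1), TGACGTCA (CRE), CCGGAAG (ETS), TTCNNNGAA (STAT), CTTTGAA and CTTTGAT (TCF), CACGTG (E-box) and the CArG box. A match describes the letters and is not evidence of a site in use.
Dusp6, chr10:99262981-99263230, plus strand: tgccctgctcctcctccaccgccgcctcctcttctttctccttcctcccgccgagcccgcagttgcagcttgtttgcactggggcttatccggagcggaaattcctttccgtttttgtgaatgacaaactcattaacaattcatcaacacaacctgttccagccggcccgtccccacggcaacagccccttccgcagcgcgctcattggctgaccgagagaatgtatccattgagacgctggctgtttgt
Bmp4, chr14:46390670-46390919, minus strand: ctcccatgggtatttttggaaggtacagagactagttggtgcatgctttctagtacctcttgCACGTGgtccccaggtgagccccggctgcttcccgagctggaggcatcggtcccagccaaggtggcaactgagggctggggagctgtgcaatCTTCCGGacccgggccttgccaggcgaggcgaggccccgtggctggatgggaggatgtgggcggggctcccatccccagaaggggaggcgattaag
Lin28a, chr4:134018817-134019066, minus strand: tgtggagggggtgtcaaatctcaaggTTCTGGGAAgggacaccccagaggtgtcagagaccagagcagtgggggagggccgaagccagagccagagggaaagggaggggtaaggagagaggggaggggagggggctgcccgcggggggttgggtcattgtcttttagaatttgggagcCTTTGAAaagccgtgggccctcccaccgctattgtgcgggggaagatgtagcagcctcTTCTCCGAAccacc
Tcf7l1, chr6:72789046-72789295, minus strand: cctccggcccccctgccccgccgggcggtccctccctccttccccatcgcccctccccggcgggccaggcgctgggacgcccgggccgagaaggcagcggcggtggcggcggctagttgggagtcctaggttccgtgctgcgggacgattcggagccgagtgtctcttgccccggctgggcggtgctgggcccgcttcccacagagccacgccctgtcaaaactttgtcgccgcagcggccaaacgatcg
Meis2, chr2:116064620-116064869, minus strand: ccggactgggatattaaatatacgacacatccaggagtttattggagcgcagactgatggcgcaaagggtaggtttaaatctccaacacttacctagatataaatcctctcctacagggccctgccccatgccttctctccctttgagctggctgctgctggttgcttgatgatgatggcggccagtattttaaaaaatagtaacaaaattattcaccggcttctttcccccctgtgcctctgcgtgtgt

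The Bmp4 window held an E-box that starts 188 bases before the start and an ETS match, read on the opposite strand, at 96 bases. The Lin28a window held STAT matches at 224 and 14 bases and a TCF match at 72 bases. None of the searched letters occurred in the Dusp6, Tcf7l1 or Meis2 windows. Over whole windows of 300 bases, which run 50 bases past the start, 11676 promoters belonged to 9073 of the tested genes. The ETS letters stood in 17.3% of the 1565 promoters of genes that rose, 12.5% of the 1678 of genes that fell and 17.6% of all tested. The AP-1 letters stood in 2.68%, 4.71% and 3.37%, and the STAT letters in 6.71%, 5.84% and 6.68%. The shares were 2.43%, 2.32% and 3.07% for the CRE, 6.33%, 5.78% and 5.76% for the TCF letters, 10.5%, 11.7% and 10.2% for the E-box and 1.02%, 1.31% and 1.2% for the CArG box. Among all 32851 promoters in the table, 8.86% held the ETS letters, 5.2% AP-1, 1.79% CRE, 8.3% STAT, 8.65% TCF, 7.15% E-box and 1.63% the CArG box.

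Most components of the kinase cascade itself did not pass. Of the 29 Ras-ERK cascade components, 4 rose, 4 fell and 21 did not pass, a called share of 27.6% that is near the 26.7% of all genes. Mapk3, which encodes an ERK kinase, and Map2k1 and Map2k2, which encode the MEK kinases, differed by 0.19, -0.27 and -0.14 and did not pass. Sos2, a guanine nucleotide exchange factor that loads Ras with GTP, fell from 9.62 and 11.3 FPKM in 2i+LIF to 2.73 and 2.07 in CH+LIF (difference -1.75 ± 0.21, adjusted p = 0.00132, limma). Its relative Sos1 did not pass, at 8.54 and 9.53 against 10.1 and 9.8 FPKM. The scaffold Ksr1 fell by 0.90 and the ETS factor Elk1 by 0.49, whereas Elk3, a related ETS factor, rose by 1.03. Ptpn11, the phosphatase SHP2 that relays receptor signals to Ras, rose by 0.81, the adaptor Gab1 by 0.43 and Nras by 0.35, and Rasa1, a Ras GTPase activator, fell by 0.44. After rescaling to the same sum, 8 cascade components were higher and 2 lower, and the calls of Elk1 and Rasa1 ended. The adjusted p rose above 0.05 in fits without 1 culture for Nras (0.101 without 2i+LIF replicate 1, 0.142 without 2i+LIF replicate 2 and 0.177 without CH+LIF replicate 1), Elk1 (0.06 without 2i+LIF replicate 1, 0.0543 without 2i+LIF replicate 2 and 0.0563 without CH+LIF replicate 2), Rasa1 (0.0527 to 0.214 without any 1 of the 4) and Ptpn11 (0.0594 without 2i+LIF replicate 2 and 0.0541 without CH+LIF replicate 2).

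Among ligands and receptors of the FGF family, 66.7% of those tested were called. Of 18 listed, 12 were tested, and 5 fell, 3 rose and 4 did not pass. Fgf4, the autocrine ligand of ESCs, fell from 98.3 and 103 FPKM in 2i+LIF to 55 and 58 in CH+LIF, a difference of -0.82 ± 0.09 (adjusted p = 0.000856, limma), and both values were below those of all cultures with PD. Fgfr2, a receptor of the extraembryonic lineages, was at 4.82 and 3.64 FPKM in 2i+LIF, 8.9 and 14.3 in 2i, 34.2 and 42.1 in LIF+PD and 0.903 and 0.684 in CH+LIF, so CH+LIF was lowest and LIF+PD highest. Its differences were -1.54 ± 0.23 from 2i+LIF (adjusted p = 0.00298) and -2.92 from the mean of the 3 conditions with PD (adjusted p = 7.98e-05). Fgf3 fell by 1.81 and Fgfrl1, a receptor-like protein without a kinase domain, by 1.28. Fgfbp1, a carrier that releases FGFs from the matrix, rose by 1.67, Fgf17 by 1.39 and Fgf18 by 1.26. Fgf10 fell by 0.76, a call that ended when a pseudocount of 0.1 was used. When 1 culture was left out, the adjusted p exceeded 0.05 for Fgf10 (0.0563 to 0.0989 without any 1 of the 4). Fgfr1, the main receptor of ESCs, did not pass, at 32.9 and 31.6 against 26.3 and 29.2 FPKM, and Fgf5 stayed at or below 0.0985 FPKM in the 4 cultures.

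Immediate-early genes, which ERK induces within minutes of stimulation, were called at the share of all genes in these steady cultures. Of 20 listed, 15 were tested, with 3 higher, 1 lower and 11 not passed, a called share of 26.7%. Egr1 rose by 0.63 but stayed low, at 0.346 and 0.373 FPKM in 2i+LIF and 1.05 and 1.15 in CH+LIF, Ier2 rose by 0.42 and Junb by 0.82. Klf6 fell by 0.38, and that call ended after rescaling to the same sum. The call of Egr1 ended with a pseudocount of 0.1 and that of Ier2 with the replicate number as a block (adjusted p = 0.054, limma). Fits without 1 of the 4 cultures gave an adjusted p over 0.05 for Egr1 (0.119 to 0.135 without any 1 of the 4), Ier2 (0.085 without 2i+LIF replicate 1, 0.192 without 2i+LIF replicate 2 and 0.198 without CH+LIF replicate 2), Junb (0.171 without 2i+LIF replicate 1 and 0.158 without CH+LIF replicate 2) and Klf6 (0.232 without 2i+LIF replicate 2, 0.202 without CH+LIF replicate 1 and 0.0807 without CH+LIF replicate 2). Fos, Jun and Srf did not pass, with differences of -0.31, -0.21 and 0.22.

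Transcription factors of naive pluripotency did not move as one group. Among the 12 network components, 4 fell (Tcf7l1, Nanog, Klf2 and Sox2), 1 rose (Gbx2) and 7 did not pass. That is 41.7% called, beside the 26.7% of all genes. Tcf7l1 was at 147 and 140.5 FPKM in 2i+LIF, 130.3 and 136 in 2i, 212 and 204 in LIF+PD and 43.5 and 53.6 in CH+LIF. The CH+LIF cultures were the lowest of the 8. They differed by -1.55 ± 0.11 from 2i+LIF (adjusted p = 0.000184, limma) and by -1.69 from the mean of the 3 conditions with PD (adjusted p = 4.05e-05). Nanog, a homeobox factor whose level varies among ESCs, went from 549 and 476 FPKM to 305 and 283, a difference of -0.80 ± 0.11 (adjusted p = 0.00242). In bulk samples, here and for every gene, fewer expressing cells and less RNA per cell cannot be told apart.

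Klf2, a Krüppel-like factor of the naive state, fell from 351 and 356 to 205 and 263 FPKM (difference -0.60 ± 0.12, adjusted p = 0.0087, limma), and its call ended after rescaling to the same sum. Sox2, the partner of Oct4, fell from 249 and 214 to 174 and 157 (difference -0.48 ± 0.11, adjusted p = 0.0189). Gbx2, a homeobox factor downstream of LIF and STAT3, was at 14.9 and 13.4 FPKM in 2i+LIF and 21.9 and 25.8 in CH+LIF, while 2i and LIF+PD held 2.09 to 2.73. It rose by 0.71 ± 0.15 over 2i+LIF (adjusted p = 0.0115) and by 2.14 over the mean of the 3 conditions with PD (adjusted p = 5.67e-05). With 1 culture left out, the adjusted p passed 0.05 for Sox2 (0.108 without 2i+LIF replicate 1 and 0.0949 without CH+LIF replicate 2) and Gbx2 (0.0707 without 2i+LIF replicate 2 and 0.0701 without CH+LIF replicate 2). Pou5f1 (Oct4) was abundant, at 2230.3 and 1929 FPKM in 2i+LIF and 2269 and 2103 in CH+LIF, with a difference of 0.07 and a 95% interval of -0.17 to 0.32. Esrrb, Klf4 and Tfcp2l1 differed by -0.03, -0.03 and -0.07, with intervals of -0.28 to 0.22, -0.30 to 0.25 and -0.34 to 0.19. Stat3, Sall4 and Tbx3 did not pass either, at 0.48, 0.27 and -0.36. After rescaling to the same sum, 3 of the 12 components were called higher and 3 lower.

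**Figure D3:**
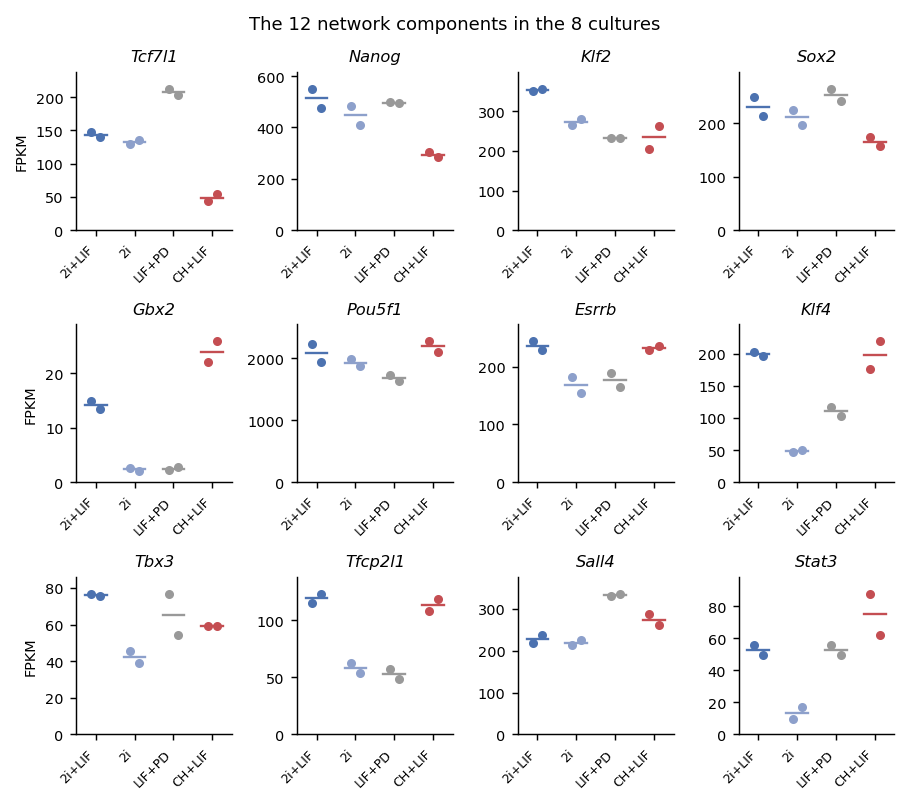
FPKM of the 12 network components in each of the 8 cultures (points) with the mean of each condition (line); each y axis starts at 0. In Tcf7l1 and Nanog both CH+LIF points (red) lie below those of all other cultures, and in Gbx2 above them.

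Among 24 further naive markers, all tested, 7 rose, 6 fell and 11 did not pass, with a median difference of 0.07. Their called share was 54.2%, beside the 26.7% of all genes. Dppa3 (Stella), which protects DNA methylation marks in the early embryo and is patchy in ESCs, had the second of the 12 largest decreases listed further on, and lies in mm10 at chr6:122626410-122630272 on the plus strand. Its level was 66 and 47.9 FPKM in 2i+LIF, 24.1 and 15.3 in 2i, 25.7 and 29.9 in LIF+PD and 2.37 and 2.3 in CH+LIF. CH+LIF was lowest of the 4 conditions, 24.4 times below 2i+LIF in mean FPKM. The difference from 2i+LIF was -4.10 ± 0.22 (adjusted p = 0.000107, limma), and that from the mean of the 3 conditions with PD was -3.27 ± 0.18 (adjusted p = 5.4e-05). Prdm14, a repressor of FGF receptor and DNA methylation genes, fell from 27.2 and 22.2 to 11.4 and 9.62 FPKM (adjusted p = 0.00601). Tcl1, an AKT co-activator, fell by 1.38, and Upp1, a uridine phosphorylase, by 1.23. Dppa4, a chromatin-associated protein, rose by 1.08, L1td1, a transposon-derived RNA-binding protein, by 0.92, the retinoic acid receptor Rarg by 1.08 and Klf5 by 0.58. Zfp57, the imprint-binding zinc finger protein, rose by 0.61. Zfp42 itself, the Rex1 locus of the reporter, did not pass, at 217 and 193 against 258 and 238 FPKM. The adjusted p rose above 0.05 in fits without 1 culture for Klf5 (0.0524 without 2i+LIF replicate 1, 0.05 without 2i+LIF replicate 2 and 0.056 without CH+LIF replicate 2) and Zfp57 (0.0502 without CH+LIF replicate 1).

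Of 23 listed genes of the formative and primed epiblast, 21 were tested, and 10 rose, 2 fell and 9 did not pass, where 12.8% of all tested genes rose and 13.9% fell. Their median difference was 0.64. Dnmt3a, Dnmt3b and Etv4 are counted here as well as in their own lists. Utf1, a chromatin factor of ESCs and epiblast, was at 90.7 and 65.5 FPKM in 2i+LIF and 320.4 and 371 in CH+LIF (difference 2.15 ± 0.17, adjusted p = 0.000301, limma). With 235 to 287 FPKM in 2i and LIF+PD, 2i+LIF stood lowest of all conditions for this gene. The SoxC factors Sox4 and Sox11 rose by 1.97 and 1.91, Sox4 to 5.6 and 5.74 FPKM and Sox11 to 5.37 and 5.13, above all 6 cultures with PD. Lef1, a Wnt effector, rose by 1.88 to 31.3 and 17.9 FPKM and was at 37.1 and 36.4 in 2i. The claudin Cldn6 rose by 1.11 and Sox3 by 1.11. Cldn6 stood at 7.84 and 9.43 FPKM in CH+LIF, 12.9 and 17 in 2i and 8.98 and 9.96 in LIF+PD. It did not pass against the mean of the 3 conditions with PD. Otx2, the leading factor of the formative state, did not pass and stayed at 2.44 and 1.8 FPKM in 2i+LIF and 2.15 and 2.11 in CH+LIF, whereas LIF+PD held 50.3 and 49.2. Fgf5, the classical primed marker, was not tested because of its low level. Pim2, a kinase, and Tead2 fell by 1.00 and 0.34, and the call of Tead2 ended after rescaling to the same sum. When 1 culture was left out, the adjusted p exceeded 0.05 for Pim2 (0.063 without CH+LIF replicate 1) and Tead2 (0.0946 without 2i+LIF replicate 1, 0.0541 without 2i+LIF replicate 2 and 0.0988 without CH+LIF replicate 1). Set against the mean of the 3 conditions with PD, 9 of the listed genes were higher and 6 lower. In that contrast 13.2% of all tested genes were called higher and 16.9% lower.

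Enzymes that write DNA methylation rose together with an enzyme that removes it. Of 14 genes for DNA methylation and TET enzymes, 7 rose, 2 fell and 5 did not pass, 64.3% called against 26.7% of all genes. Dnmt3l, the cofactor of the de novo methyltransferases, was at 47.1 and 25.4 FPKM in 2i+LIF and 157 and 156 in CH+LIF (difference 2.14 ± 0.24, adjusted p = 0.001, limma). Dnmt3a was at 6.5 and 6.33 against 21 and 17 FPKM, a difference of 1.43 ± 0.17 (adjusted p = 0.00145). The 2i and LIF+PD cultures held more of both transcripts than 2i+LIF, with 140.2 to 190.4 FPKM of Dnmt3l and 31.9 to 63.5 of Dnmt3a, and Dnmt3a did not pass against the mean of the 3 conditions with PD. Dnmt3b rose by 0.95, Tet1, which oxidises 5-methylcytosine, by 1.29, and Hells, a remodeller needed for methylation, by 0.90. Uhrf2, a relative of the maintenance factor Uhrf1, fell by 0.93, while Uhrf1 and Dnmt1 did not pass, at -0.15 and 0.23. Fits without 1 of the 4 cultures gave an adjusted p over 0.05 for Dnmt3b (0.0568 without 2i+LIF replicate 2 and 0.0626 without CH+LIF replicate 1).

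Of 26 germline genes that DNA methylation is known to silence, 18 were tested, with 7 lower, 3 higher and 8 not passed. That is 55.6% called, beside the 26.7% of all genes. Tuba3a, a testis tubulin, went from 130.4 and 83 FPKM to 23.7 and 18 (difference -2.28, adjusted p = 0.000845, limma), Dazl, a germ cell RNA-binding protein, from 9.92 and 7.27 to 2.34 and 2.09 and Rpl10l, a testis ribosomal protein, from 139 and 131 to 66.8 and 48.6. The 3 that rose are genes of germ cells and the piRNA pathway, Ddx4 (1.20), Mael (1.16) and Piwil2 (1.11), and all 3 stayed below 6 FPKM in CH+LIF.

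LIN28 genes and MYC, which act on growth and on let-7 microRNAs, rose. Lin28a, the RNA-binding protein that blocks let-7 maturation, was at 31.2 and 29.4 FPKM in 2i+LIF, 92.9 and 102 in 2i, 81.5 and 103 in LIF+PD and 159 and 158 in CH+LIF. CH+LIF was above every culture with PD and 2i+LIF below every other culture, and the difference between them was 2.35 ± 0.12 (adjusted p = 8.56e-05, limma). Lin28b rose by 1.70, to 5.43 and 4.25 FPKM. In the list of LIN28, let-7 and microRNA processing genes, 5 of the 8 tested rose, 0 fell and 3 did not pass. That is 62.5% called, beside the 26.7% of all genes, with Drosha at 0.73, Dicer1 at 0.64 and Xpo5 at 0.37. Myc rose from 8.61 and 5.31 to 45.9 and 45.6 FPKM, a difference of 2.59 ± 0.31 (adjusted p = 0.00132), while its more abundant relative Mycn fell from 78.4 and 71.8 to 58.2 and 61. That call, with a difference of -0.33, ended after rescaling to the same sum. Mycl fell by 0.98. With 1 culture left out, the adjusted p passed 0.05 for Xpo5 (0.078 to 0.15 without any 1 of the 4), Mycn (0.134 without 2i+LIF replicate 1, 0.121 without CH+LIF replicate 1 and 0.0613 without CH+LIF replicate 2) and Mycl (0.0518 without CH+LIF replicate 1). In all, 2 of the 13 tested MYC, MAX and MXD genes rose, 2 fell and 9 did not pass, a called share of 30.8% beside the 26.7% of all genes.

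Among called inhibitors of cyclin-dependent kinases (CDKs), all but Cdkn1c (p57) fell, while Ccne1 and Cdk6, which drive cells towards S phase, rose. Of 19 tested G1 cyclins, CDKs and CDK inhibitors, 6 fell, 3 rose and 10 did not pass, 47.4% called against 26.7% of all genes. Cdkn2a, which encodes p16 and p19ARF, went from 40.7 and 32.6 FPKM to 13.9 and 11.4 (difference -1.46 ± 0.15, adjusted p = 0.000726, limma), below all 6 cultures with PD. Cdkn1b (p27) went from 28.3 and 27.6 to 13.9 and 16.8 and Cdkn1a (p21) from 101 and 106 to 56.8 and 62.3, differences of -0.83 and -0.78. Cdkn2c and Cdkn2d fell by 1.00 and 0.58, and Cdkn1c rose by 0.60, and the call of Cdkn2d ended after rescaling to the same sum. The adjusted p rose above 0.05 in fits without 1 culture for Cdkn2c (0.0524 without 2i+LIF replicate 1, 0.105 without 2i+LIF replicate 2 and 0.111 without CH+LIF replicate 1), Cdkn2d (0.0818 without 2i+LIF replicate 2 and 0.0854 without CH+LIF replicate 1) and Cdkn1c (0.117 without 2i+LIF replicate 2, 0.0629 without CH+LIF replicate 1 and 0.103 without CH+LIF replicate 2). Ccne1 (cyclin E1) rose from 81.6 and 65 to 176 and 169.7 FPKM and Cdk6 from 4.41 and 4.06 to 12.1 and 12.2, differences of 1.23 and 1.32 (adjusted p = 0.000524 and 0.000856). The LIF+PD cultures held 161 and 154 FPKM of Ccne1, close to CH+LIF, and Cdkn1a was lower still there, at 33.9 and 33.6. Ccnd1 did not pass, at 0.33. Rescaled to the same sum, the list had 4 members higher and 4 lower.

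Secreted signals moved in opposite directions, with Bmp4 up and Nodal down. Bmp4, a ligand that sustains ESCs through ID proteins, was at 13.2 and 10.7 FPKM in 2i+LIF, 9.52 and 8.07 in 2i, 2.37 and 1.59 in LIF+PD and 65.9 and 72.5 in CH+LIF. Both CH+LIF cultures exceeded all others, and differed by 2.45 ± 0.17 from 2i+LIF (adjusted p = 0.000184, limma) and by 3.29 from the mean of the 3 conditions with PD (adjusted p = 2.42e-05). The helix-loop-helix inhibitors Id1 and Id3, which BMP signalling induces, went from 3.94 and 3.94 to 15.7 and 29.2 and from 17.7 and 7.38 to 44.5 and 51.4 FPKM. Their differences were 2.18 ± 0.30 and 1.96 ± 0.33 (adjusted p = 0.00225 and 0.00506). Id2 and Id4 fell, by 1.28 and 2.20, the latter from 22 and 19 to 3.74 and 3.57 FPKM. Smad6, a BMP-induced inhibitor of the same pathway, also fell, by 0.92, and Bmp7 by 1.10. When 1 culture was left out, the adjusted p exceeded 0.05 for Bmp7 (0.0743 without 2i+LIF replicate 2 and 0.0791 without CH+LIF replicate 1).

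Nodal, the ligand that signals through SMAD2 and SMAD3, went from 39.9 and 35.3 FPKM in 2i+LIF to 14.7 and 18 in CH+LIF (difference -1.16 ± 0.12, adjusted p = 0.000902, limma). Its feedback antagonists Lefty1 and Lefty2 did not pass. Neither overlapped between the groups, but nor did 8611 of the 12777 tested genes. Lefty1 was at 22.3 and 9.69 against 2.98 and 2.96 FPKM, Lefty2 at 76.5 and 39.6 against 15.3 and 7.21, and replicates differed widely in other conditions too, with 66.4 and 3.08 of Lefty1 in LIF+PD. Across the 24 tested Nodal, BMP and ID genes, 6 fell, 3 rose and 15 did not pass, 37.5% called against 26.7% of all genes.

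Genes of early mesoderm split. T (Brachyury) was at 4.86 and 3.64 FPKM in 2i+LIF, 15.4 and 8.24 in 2i, 0.161 and 0.21 in LIF+PD and 36.3 and 18.5 in CH+LIF, so CH+LIF was highest and differed from 2i+LIF by 2.37 ± 0.35 (adjusted p = 0.00297, limma). Eomes rose by 2.04 to 9.98 and 8.85 FPKM and Evx1 by 1.15 to 1.62 and 1.07. Fits without 1 of the 4 cultures gave an adjusted p over 0.05 for Evx1 (0.0519 without CH+LIF replicate 1). The organiser gene Gsc fell by 2.34 and the caudal factor Cdx2 by 2.16, while its relative Cdx1 did not pass, at 24.1 and 16.5 against 36 and 34.2 FPKM. Of 20 mesoderm and definitive endoderm genes listed, 11 were tested, with 3 higher, 3 lower (Nodal is the other) and 5 not passed. Among the 9 too low for the test were Mixl1, Mesp1, Tbx6, Sox17 and Foxa2, none above 0.545 FPKM in the 4 cultures. Of 11 tested trophectoderm genes and keratins, 4 fell, 2 rose and 5 did not pass. Tfap2a went from 15.6 and 14.8 to 4.77 and 5.02 FPKM, and Gata2 fell by 1.46, whereas Krt18 rose by 1.29 and its partner Krt8, at -0.23, did not pass. Cdx2 and Eomes are counted in both lists, and each list was called at 54.55%, beside the 26.7% of all genes.

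By size of change alone, Spry4 led the increases and Ly6a the decreases. The 12 genes with the largest increase, under the conditions given in the methods, were Spry4, Zfp423, Adam23, Slc39a14, Slc7a7, Trf, Chrna9, Epha1, Enox1, Pdk1, Calca and Ccdc3, with differences from 3.97 down to 2.60 and adjusted p (limma) from 3.11e-05 to 0.000793. Zfp423, a zinc finger factor that works with SMADs, was at 0.534 and 0.314 FPKM in 2i+LIF and 17.3 and 15.8 in CH+LIF. Adam23, a membrane protein of the ADAM family without protease activity, was at 5.57 and 5.02 against 56.2 and 60.7. The zinc transporter Slc39a14 was at 1.14 and 1.1 against 17.6 and 19.3, and the iron carrier transferrin, Trf, at 0.395 and 0.503 against 10.1 and 10.4 FPKM. The rule that picked the 12 genes of each direction required no overlap with the 2i+LIF cultures. In 10 of the 12, both CH+LIF cultures lay above all 6 cultures with PD, beside 13% of all tested genes. The exceptions were Slc7a7, an amino acid transporter at 25.5 and 20.6 FPKM in 2i, and Calca, the calcitonin gene at 12.1 and 13.1 in LIF+PD. For both of these, 2i+LIF held the lowest mean of the 4 conditions, 2.68 and 0.555 FPKM.

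The 12 largest decreases were Ly6a, Dppa3, Cyp1a1, Calcoco2, S100a13, Meis2, Aqp3, Lrrc15, Elf3, S100a1, Cbx8 and Bhmt, with differences from -4.71 to -2.97. Ly6a (Sca-1), a surface antigen of stem and progenitor cells, was at 41.1 and 38.3 FPKM in 2i+LIF and 0.503 and 0.611 in CH+LIF, but 2i was nearly as low, at 0.882 and 1.06. Meis2, a homeobox cofactor of HOX proteins, was at 84.9 and 72.6 FPKM in 2i+LIF, 25.6 to 78.5 in 2i and LIF+PD, and 4.86 and 5.76 in CH+LIF. It differed by -3.66 ± 0.14 from 2i+LIF (adjusted p = 2.89e-05, limma) and by -3.08 from the mean of the 3 conditions with PD (adjusted p = 1.89e-05). Elf3, an epithelial ETS factor, went from 87 and 90.7 to 8.52 and 8.69 FPKM and had the smallest SE of the 24, 0.09. Calcoco2, an autophagy receptor, went from 79 and 62.8 to 2.81 and 4.31 FPKM and was at 245 and 252 in LIF+PD. The Polycomb subunit Cbx8 went from 9.12 and 8.78 to 0.473 and 0.067, and the xenobiotic enzyme Cyp1a1 from 14.1 and 20 to 0.0633 and 0.156. Both CH+LIF cultures lay below all 6 cultures with PD in 8 of the 12, beside 14% of all tested genes. S100a13, Aqp3, S100a1 and Bhmt were the exceptions, since in each of them at least 1 culture in 2i was as low. Their 2i levels were 4.29 and 0.92 FPKM for S100a13, 21.1 and 10.7 for Aqp3, 1.54 and 1.78 for S100a1 and 0.173 and 0.356 for Bhmt, against 1.07 and 2.66, 9.35 and 13.1, 1.81 and 3.65 and 0.646 and 1.27 in CH+LIF.

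**Figure D4:**
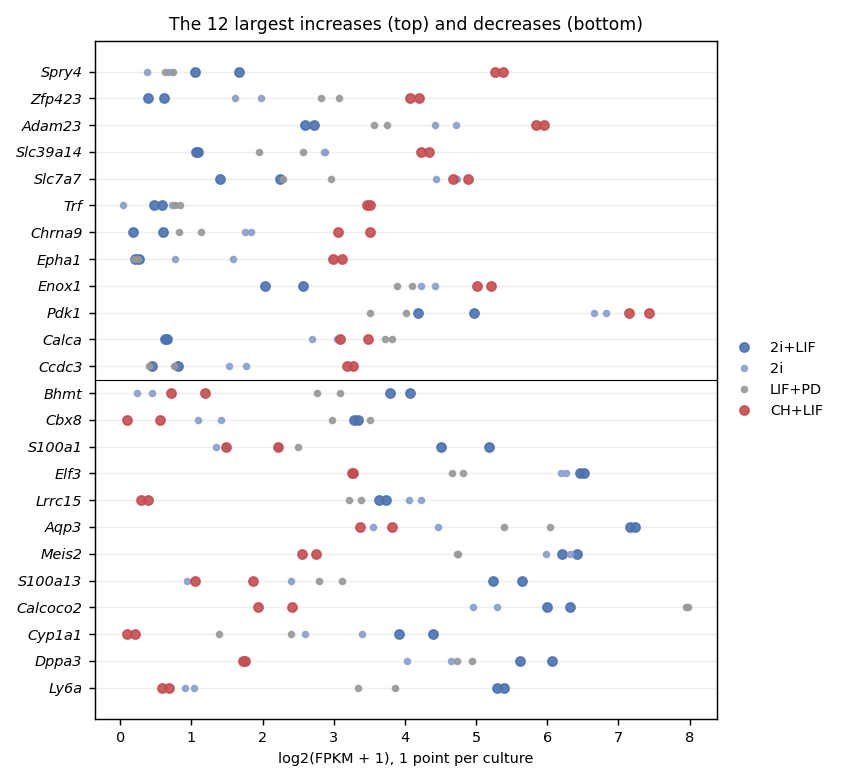
Each row is a gene among the 12 largest increases (above the line) or the 12 largest decreases (below it), and each point is the log2(FPKM + 1) of 1 of the 8 cultures, coloured by condition. Red CH+LIF points lie right of the blue 2i+LIF points in the upper 12 rows and left of them in the lower 12, and the points of 2i and LIF+PD often lie between.

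Cytosolic ribosomal protein genes were among the most abundant genes that fell. The most abundant called genes that rose were Hsp90ab1, H2afz, Eif4g2, Hmgb1, Hnrnpab and Hspd1, by 0.33 to 0.75. H2afz, the histone variant H2A.Z, went from 2025 and 1802 to 2845 and 3008 FPKM. The most abundant that fell included mt-Co1, Rps26, Rpl13a, Rps27 and Rps18. Rps26, of the small ribosomal subunit, went from 7224 and 6937 to 4252 and 4741 and Rpl13a, of the large subunit, from 6098 and 5329 to 3442 and 3487 FPKM. Of 84 tested cytosolic ribosomal protein genes, 45 fell, 0 rose and 39 did not pass, a called share of 53.6% beside the 26.7% of all genes. Their median difference was -0.42. Their summed FPKM was 146670 and 163980 in 2i+LIF and 114040 and 116910 in CH+LIF. After rescaling to the same sum 31 fell and 1 rose, with a median of -0.22, and after quantile normalization 33 fell and 0 rose. Of 13 tested mitochondrially encoded genes, 2 fell and 11 did not pass, a called share of 15.4%, and 0 were called after rescaling to the same sum. The gene mt-Co1, for a subunit of cytochrome c oxidase, fell by 0.73. Nuclear-encoded subunits of oxidative phosphorylation were called at a share of 14.1%, below the 26.7% of all genes, with 10 of 78 lower and 1 higher, and under the same-sum rescaling 5 were lower and 10 higher. With 1 culture left out, the adjusted p passed 0.05 for mt-Co1 (0.185 without 2i+LIF replicate 2, 0.174 without CH+LIF replicate 1 and 0.0983 without CH+LIF replicate 2), Hsp90ab1 (0.119 without 2i+LIF replicate 1, 0.1 without 2i+LIF replicate 2 and 0.19 without CH+LIF replicate 1), Hmgb1 (0.13 without 2i+LIF replicate 2 and 0.139 without CH+LIF replicate 1), Hnrnpab (0.121 without 2i+LIF replicate 2, 0.113 without CH+LIF replicate 1 and 0.0724 without CH+LIF replicate 2), Hspd1 (0.0574 without 2i+LIF replicate 2 and 0.0583 without CH+LIF replicate 1) and Rps27 (0.0548 to 0.135 without any 1 of the 4).

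Of 22 genes in the glycolysis list, 8 fell, 1 (Pdk1) rose and 13 did not pass, with a median difference of -0.41. That is 40.9% called, beside the 26.7% of all genes. Pdk1, the kinase that keeps pyruvate out of the citric acid cycle, was at 30.2 and 17.2 FPKM in 2i+LIF, 113 and 99.7 in 2i, 15.1 and 10.4 in LIF+PD and 171 and 141 in CH+LIF. It rose by 2.71 ± 0.26 (adjusted p = 0.000604, limma). The glucose transporter Slc2a3 fell from 408 and 378 to 214 and 206 FPKM, Ldhb, which turns lactate into pyruvate, from 508 and 554 to 323 and 287, and the lactate exporter Slc16a3 from 36.9 and 17.4 to 8.71 and 4.8. Their differences were -0.90, -0.80 and -1.81. The adjusted p rose above 0.05 in fits without 1 culture for Slc16a3 (0.0921 without 2i+LIF replicate 1 and 0.0915 without CH+LIF replicate 2). Pgk1, Tpi1, Ldha and Slc16a3 were higher in replicate 1 than in replicate 2 of every condition. With the replicate number as a block, 13 of the 22 fell and 1 rose, and Pgk1, Tpi1 and Ldha, which did not pass without it, fell (adjusted p = 0.00766, 0.00314 and 0.0293, limma). Their differences were -0.56, -0.59 and -0.31 in both fits, and under the same-sum rescaling 4 fell and 1 rose.

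All cholesterol synthesis genes that were called rose. Of 20 tested, 9 rose, 0 fell and 11 did not pass, 45% called against 26.7% of all genes. The median difference was 0.27. Lss (lanosterol synthase) was at 30.1 and 39.2 against 70.7 and 63.4 FPKM, a difference of 0.94 (adjusted p = 0.00377, limma), and Idi1, which isomerises isopentenyl diphosphate, at 33.7 and 32.4 against 69.7 and 54.4. Nsdhl, a late step of the pathway, rose by 0.66. The regulators Srebf2 and Insig1 did not pass, at 0.04 and 0.08.

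Serine synthesis genes rose as a run of consecutive enzymes. Phgdh, the first enzyme, was at 65 and 55.3 FPKM in 2i+LIF and 145 and 139 in CH+LIF (difference 1.23 ± 0.17, adjusted p = 0.00225, limma), Psat1, the second, rose by 0.47, and Psph, the last, by 0.65. The mitochondrial folate enzymes Mthfd2 and Shmt2 rose by 0.75 and 0.38. Atf4, which controls these genes in stress, was at -0.13, and its target Asns at -0.05, and neither passed, while its targets Chac1 and Trib3 rose by 1.09 and 0.87. When 1 culture was left out, the adjusted p exceeded 0.05 for Psat1 (0.0945 without 2i+LIF replicate 2, 0.088 without CH+LIF replicate 1 and 0.0509 without CH+LIF replicate 2), Shmt2 (0.131 without 2i+LIF replicate 2, 0.105 without CH+LIF replicate 1 and 0.0772 without CH+LIF replicate 2) and Trib3 (0.0547 without 2i+LIF replicate 2). Pycr1, of proline synthesis, fell from 31.8 and 29.6 to 14.3 and 11.7 FPKM (difference -1.19, adjusted p = 0.000525). In all, 7 of the 18 tested ATF4 and serine synthesis genes rose, 2 fell and 9 did not pass, 50% called against 26.7% of all genes.

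Against 2i+LIF, adhesion genes changed in both directions. Of 20 tested collagens, laminins, integrins and related genes, 7 fell, 7 rose and 6 did not pass, a called share of 70% beside the 26.7% of all genes. Set against the mean of the 3 conditions with PD, 10 were lower and 1 was higher. In that contrast 16.9% of all tested genes were called lower and 13.2% higher. The integrin chains Itgav and Itgb5, which pair as a vitronectin receptor, went from 13.7 and 13.5 to 4.54 and 3.99 and from 26.2 and 29.6 to 7.26 and 9.62 FPKM, differences of -1.48 and -1.62 (adjusted p = 0.000796 and 0.00147, limma). Both lay below all 6 cultures with PD. Fibronectin (Fn1) fell by 0.71 and laminin alpha 5 (Lama5) by 1.28, while the fibronectin receptor chain Itga5 rose by 1.03 and Itga6 by 0.62. E-cadherin (Cdh1) did not pass, at 126 and 142 against 115 and 115 FPKM. Among 23 tested contractile actomyosin genes and SRF targets, 4 rose, 2 fell and 17 did not pass. That called share of 26.1% is near the 26.7% of all genes. Zyx (zyxin), a focal adhesion protein, was at 4.04 and 5.18 FPKM in 2i+LIF and 23.4 and 30.7 in CH+LIF (difference 2.32 ± 0.22, adjusted p = 0.000612), whereas Actb and Vcl did not pass, at 0.07 and 0.32.

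Interferon-related and antigen presentation genes moved without a common direction. Of 12 tested, 4 fell, 3 rose and 5 did not pass, a called share of 58.3% beside the 26.7% of all genes. The membrane proteins Ifitm1, Ifitm2 and Ifitm3, which block virus entry, all fell, Ifitm1 from 598 and 563 to 165 and 147 FPKM (difference -1.89 ± 0.11, adjusted p = 0.000112, limma) and the others by 0.52 and 0.79. The MHC class I light chain B2m fell by 1.18, from 52.9 and 54.3 to 21.7 and 24.7 FPKM. The 2i and LIF+PD cultures held 13.6 to 22.5, and B2m did not pass against the mean of the 3 conditions with PD. The heavy chain gene H2-K1 rose by 1.22, to 4.35 and 4.16 FPKM. Bst2 (tetherin), which holds virus particles at the surface, rose from 9.52 and 5.59 to 48.3 and 45.6. Irf1 and Irf9 did not pass, at 0.04 and 0.08, H2-D1 rose by 0.50, and Isg15, Ifit1 and Ifit3 were listed at 0 in the 4 cultures. Fits without 1 of the 4 cultures gave an adjusted p over 0.05 for Ifitm2 (0.0711 without 2i+LIF replicate 1 and 0.0715 without CH+LIF replicate 1) and H2-D1 (0.0703 to 0.152 without any 1 of the 4).

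Of 17 tested imprinted genes, 7 rose, 3 fell and 7 did not pass, a called share of 58.8%, beside the 26.7% of all genes. Nnat (neuronatin) went from 0.385 and 0.445 to 5.72 and 7.06 FPKM, Mest from 15.7 and 16.4 to 56.5 and 70.9, and Grb10, an adaptor that restrains insulin signalling, from 7.4 and 6.77 to 23.5 and 22.9. Their differences were 2.38, 1.91 and 1.58 (adjusted p = 0.000316, 0.000499 and 0.00098, limma). Plagl1, a zinc finger growth inhibitor, fell from 83 and 77.4 to 23.3 and 27.5 FPKM, and LIF+PD held 9.56 and 10.4. H19 and Igf2, neighbours with a shared control region, did not pass. H19 was at 2.34 and 0.794 FPKM in 2i+LIF, 2.37 and 2.21 in CH+LIF and 94.1 and 111 in LIF+PD.

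Lists for the signals left in place, Wnt and LIF, were called at shares of 28.6% and 15%, beside the 26.7% of all genes. Of 14 tested Wnt feedback and target genes, 2 rose, 2 fell and 10 did not pass. Axin2, the standard readout of beta-catenin, was at 61.3 and 59.4 FPKM in 2i+LIF, 65.4 and 64.9 in 2i and 68.4 and 63.8 in CH+LIF, all with CH, and at 1.85 and 2.46 in LIF+PD, and its difference of 0.13 had a 95% interval of -0.13 to 0.39. Lef1 and Bmp4, described above, are the 2 that rose. Notum, a Wnt-inactivating enzyme, fell by 1.05, and Sp5 by 0.59, a call that ended after rescaling to the same sum and with a pseudocount of 0.1. Of 20 tested LIF receptor, JAK-STAT and SOCS genes, 3 rose, 0 fell and 17 did not pass. Socs3, the feedback inhibitor that STAT3 induces, was at 63.9 and 79 FPKM in 2i+LIF and 98.2 and 119 in CH+LIF, against 2.59 and 1.29 in 2i without LIF, and its difference of 0.60 from 2i+LIF did not pass. Pim3, Cish and Lifr, the LIF receptor itself, rose by 0.68, 1.15 and 0.49, and Pim3 held in each fit without 1 culture. With 1 culture left out, the adjusted p passed 0.05 for Sp5 (0.0679 to 0.133 without any 1 of the 4), Cish (0.0572 to 0.124 without any 1 of the 4) and Lifr (0.0542 to 0.093 without any 1 of the 4).

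Of 11 tested genes of Polycomb repressive complex 2, 3 rose, 3 fell and 5 did not pass, 54.55% called against 26.7% of all genes. The core subunit Suz12 went from 81.7 and 79.4 to 53.2 and 45.8 FPKM and the accessory subunit Aebp2 from 54.2 and 62.7 to 34.2 and 33.7, differences of -0.69 and -0.76 (adjusted p = 0.00365 and 0.00141, limma), while the catalytic subunit Ezh2 rose by 0.55 and the histone-binding Rbbp7 by 0.66. Jarid2, which recruits the complex, rose by 0.99. The adjusted p rose above 0.05 in fits without 1 culture for Ezh2 (0.0747 without 2i+LIF replicate 2 and 0.072 without CH+LIF replicate 1) and Jarid2 (0.0814 without 2i+LIF replicate 2 and 0.0854 without CH+LIF replicate 1). Of 17 tested p53 targets, 5 fell, 2 rose and 10 did not pass, a called share of 41.2%, beside the 26.7% of all genes. Among them Phlda3, an AKT inhibitor, fell by 0.86, and Gadd45a and the BH3-only gene Pmaip1 rose by 1.44 and 1.5, the latter to 1.88 and 2.19 FPKM. Gadd45b, a stress-induced relative in another list, went the other way, from 26.2 and 22.5 to 4.27 and 5.03 FPKM (difference -2.16 ± 0.13, adjusted p = 0.000152).

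**Figure D5:**
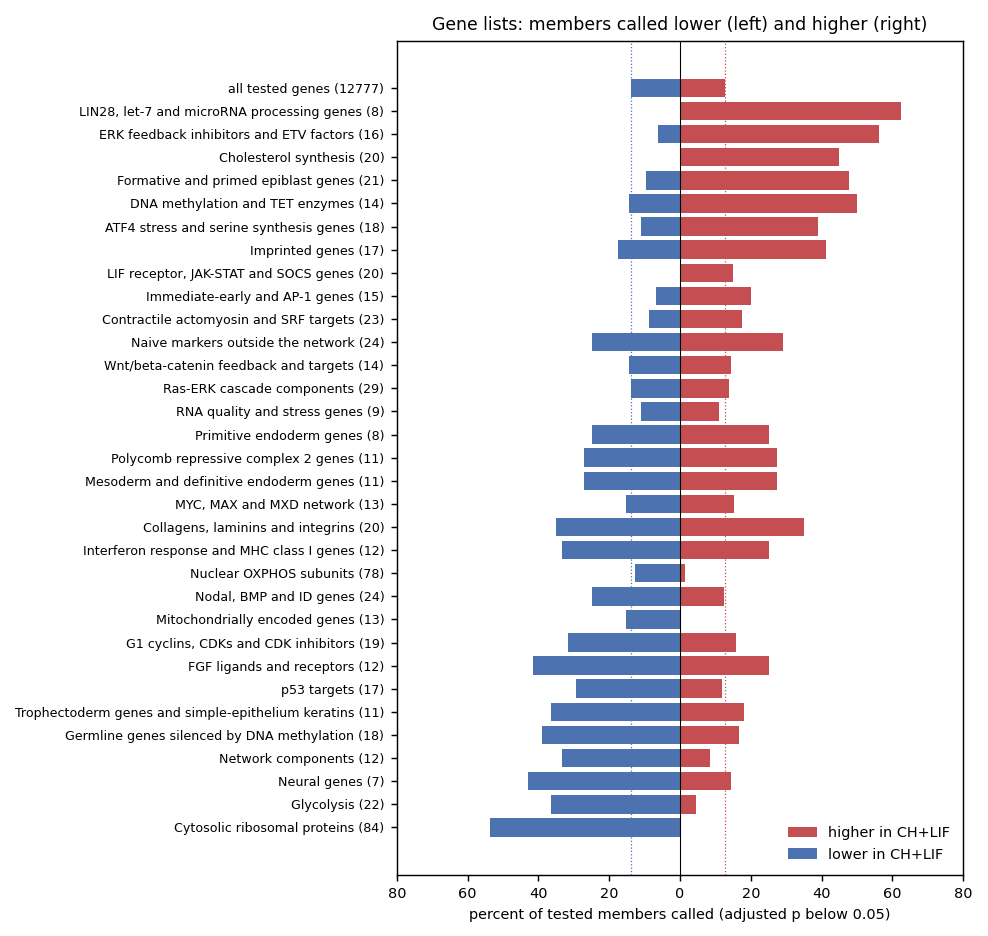
Share of the tested members of each list (their number in brackets) called higher (red, right) or lower (blue, left) in CH+LIF, with the x axis in percent and dotted lines at the 12.8% and 13.9% of all tested genes. The longest red bars belong to the LIN28, ERK feedback and DNA methylation lists and the longest blue bar to the ribosomal proteins; lists with fewer than 7 tested members are left out.

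Markers of the labelled cell type were present in all 4 cultures, with at least 65.5 FPKM for each of Pou5f1, Sox2, Nanog, Zfp42, Esrrb, Dppa5a, Tdgf1 and Utf1. Markers of other cells ranged from 0 to well above the minimum for testing. Reaching that minimum were 8 of 16 primitive endoderm genes and 11 of 20 genes of mesoderm and definitive endoderm. So did 11 of 15 trophectoderm genes and keratins and 7 of 15 neural genes, but only 4 of 12 feeder fibroblast markers. Of the 12 markers of feeder fibroblasts, Dcn, Col3a1, Lum, Prrx1 and Fap were at 0 in the 4 cultures, and the summed level of the list was 2.68 and 4.4 FPKM in 2i+LIF and 5.6 and 18.9 in CH+LIF, where Postn made up 14.1 FPKM of the second CH+LIF culture and was at 0 in the first. Of the 4 tested, Thy1 rose from 0.117 and 0.16 to 2.85 and 2.95 FPKM, Fbln2 fell by 0.80 and the others did not pass. For primitive endoderm, Gata6, Sox17, Pdgfra, Foxq1, Hnf4a, Amn and Cubn stayed at or below 0.239 FPKM. Sox7, too low to be tested, was at 0.0863 and 0.131 in 2i+LIF and 0.321 and 0.951 in CH+LIF, where both cultures were higher. The list's sum was 320.1 and 324 FPKM in 2i+LIF and 225 and 250.3 in CH+LIF, and of 8 tested members 2 rose and 2 fell, all of them matrix genes (Lamb1 and Col4a1 higher, Lamc1 and Sparc lower). After rescaling to the same sum, the calls of Lamc1, Sparc and Fbln2 ended. Of 13 genes of 2-cell-like cells, 1 was tested, the housekeeping-like Eif1a, and Zscan4c, Zscan4d and Zscan4f stayed at or below 0.636 FPKM. Of 7 tested neural genes, 3 fell, 1 rose and 3 did not pass, a called share of 57.1% beside the 26.7% of all genes. The median difference of this list was 0.19, and Nes (nestin) fell by 1.18. Among 9 tested genes that respond to handling or stress, Hsph1 rose by 0.77 and Gadd45b fell, and Malat1, Hspa5 and Hspa8 did not pass. When 1 culture was left out, the adjusted p exceeded 0.05 for Hsph1 (0.0757 without 2i+LIF replicate 1, 0.0506 without CH+LIF replicate 1 and 0.0619 without CH+LIF replicate 2), Fbln2 (0.207 without 2i+LIF replicate 2, 0.165 without CH+LIF replicate 1 and 0.116 without CH+LIF replicate 2), Lamb1 (0.0763 to 0.178 without any 1 of the 4), Col4a1 (0.107 to 0.138 without any 1 of the 4), Lamc1 (0.0722 without 2i+LIF replicate 2, 0.0522 without CH+LIF replicate 1 and 0.0609 without CH+LIF replicate 2) and Sparc (0.102 without 2i+LIF replicate 1, 0.0712 without 2i+LIF replicate 2 and 0.123 without CH+LIF replicate 1). The part of these markers in the results above was not tested.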

How the data were processed

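RNA of 8 cultures was sequenced, and 1 table per culture was deposited. Per the submitters' processing notes, reads were handled with TopHat2, Cufflinks and Cuffdiff on mm10, and the study's methods name uniquely mapped reads and Ensembl 75 gene models. The FPKM values used here were computed by the authors. The labels describe polyA RNA and the study's methods rRNA-depleted RNA, and which held for these libraries was not settled. The study's read counts and DESeq2 tests were not used here.

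Rows were summed by Ensembl ID to 38991 genes, with the deposited symbols. Of these, 37513 matched GENCODE M21, which gave biotype and strand, and starts were converted to count from 1. Values were taken as log2(FPKM + 1). Genes with at least 1 FPKM in at least 2 of the 8 cultures and a span of at least 300 bases were kept, which left out 150 short genes and kept 12777. All 8 cultures were fitted together in limma 3.58.1 (R 4.3.3) with a mean-variance trend and 4 residual degrees of freedom, with CH+LIF against 2i+LIF as the main contrast and CH+LIF against the mean of 2i+LIF, 2i and LIF+PD as another. P-values were adjusted by Benjamini and Hochberg over all tested genes and called below 0.05. Tables used pandas 2.3.3 and numpy 2.4.6, and plots matplotlib 3.10.9, under Python 3.11.15.

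The number of reads is unknown. Relative depth, estimated from the ratios of weak genes, was 0.499 to 1.18 times that of 2i+LIF replicate 1, and no counting interval can be given. In simulated data with 200 changed genes of 12777 in the main contrast, 0% were recovered at a log2 change of 0.5, 67.8% at 1 and 93.8% at 2, with 7.28% and 6.17% of calls false at the last 2 sizes. The data gave 3411 calls, and the adjusted p that belongs to a given p falls as more genes change. The simulated rates are therefore not the recovery rates of this comparison.

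Genes named by size were the 12 largest changes in each direction and the 6 most abundant called genes in each direction among genes with a named, non-pseudogene symbol, a mean of at least 5 FPKM in either group and no overlap between the groups. A few genes that this rule or the lists hold are not reported here. Further genes are the 12 network components and examples from the lists, mostly their largest called changes and defining members, and the others among them were chosen after their values were seen. The members and the lists were chosen with earlier results of these data known. Alternatives were another pseudocount, other filters, rescalings, quantile normalization, the replicate number as a block, no trend, 4 cultures alone and each culture left out. The replicate number is not said to mark a shared day or batch, and deviations from the condition means of same-numbered cultures correlated at 0.138 between 2i+LIF and CH+LIF.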

Additional observations from a re-analysis of the deposited data

How the results depend on the processing

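With 243 named genes tested, 187 were called, and 131 of these kept their call in every alternative run, 153 in every alternative other than leaving out 1 culture. In none of them did a called change reverse direction under any alternative run. Leaving out 1 culture gave between 1654 and 3509 calls, 709 to 1696 higher and 945 to 1813 lower in CH+LIF. Against the mean of the 3 conditions with PD, calls ranged between 1548 and 3843, with 606 to 1687 higher and 942 to 2156 lower. The lowest value of each came without CH+LIF replicate 1, where the lone culture of a condition is assumed to vary like the others. Rescaling to the same sum gave 2998 higher and 1048 lower calls, and 2691 higher against the 3 conditions with PD, whose share of higher calls went from 43.9% to 64.7%. The other alternatives, those chosen after the data were seen included, gave 2846 to 3692 calls, with 46% to 50% higher.

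What same-numbered cultures share beyond a label is not stated. Genes under 300 bases had a higher FPKM sum in replicate 1 than in replicate 2 of every condition. Mitochondrial genes had a higher sum in replicate 2 of every condition. The correlations of deviations between conditions, 0.0362 to 0.138, did not all reach 0.1. With the replicate block the calls went from 3411 to 3692 and, against the 3 conditions with PD, from 3847 to 4142, and of the named genes Ier2 and Hhip lost their calls while Pgk1, Tpi1, Ldha, Dppa5a, Lefty2, Map2k1 (lower), Cdx1 and Zfp42 (higher) gained one (adjusted p = 0.00314 to 0.047, limma). Of the 13 mitochondrially encoded genes 6 were then lower and 1 higher, and of the 20 LIF receptor, JAK-STAT and SOCS genes 2 were lower and 3 higher. FPKM without counts leaves the depth behind each value unknown, and 2 cultures per condition limit the precision.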

Other observations

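The genes in this section were chosen after their values were seen. The effector of Hedgehog signalling Gli1 was at 2.57 and 3.07 FPKM in 2i+LIF, 1.91 and 2.55 in 2i, 10 and 12 in LIF+PD and 17.6 and 21.3 in CH+LIF, and both CH+LIF values lay above all 6 cultures with PD. Its difference from 2i+LIF was 2.41 ± 0.17 (adjusted p = 0.000184, limma). Ptch1, which encodes a Hedgehog receptor and responds to Gli1, did not pass, at 8.55 and 11.4 against 7.41 and 7.05 FPKM. Smo, the transducer, differed by 0.58 (adjusted p = 0.0322), Gli3 by 1.03 (adjusted p = 0.0326) and the ligand trap Hhip by -0.81 (adjusted p = 0.0475). Fits without 1 of the 4 cultures gave an adjusted p over 0.05 for Smo (0.0998 without 2i+LIF replicate 1, 0.133 without 2i+LIF replicate 2 and 0.162 without CH+LIF replicate 2), Gli3 (0.101 without 2i+LIF replicate 1, 0.13 without 2i+LIF replicate 2 and 0.16 without CH+LIF replicate 2) and Hhip (0.241 without 2i+LIF replicate 1, 0.151 without CH+LIF replicate 1 and 0.141 without CH+LIF replicate 2). The call of Hhip also ended with the replicate number as a block (adjusted p = 0.0592) and after rescaling to the same sum (adjusted p = 0.053).

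In 3 genes CH+LIF replicate 2 held a level far above the other 7 cultures, and none of them passed. Rbm39, a splicing factor, was at 171 and 194 FPKM in 2i+LIF and 266 and 4822 in CH+LIF. Katna1, a subunit of the microtubule-severing enzyme katanin, was at 26.3 and 21.9 against 27 and 1481 FPKM, and Ttll3, a tubulin glycine ligase, at 1.29 and 1.72 against 0.299 and 509. In 2i and LIF+PD they held 208 to 235, 21.6 to 23.2 and 0.739 to 2.94 FPKM.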
